A study of Homo sapiens with 4 samples.

Results

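The regions described here were open in 786-O cells without DEK and carried no peak in control cells. They were 826 of 134897 regions obtained by merging the 4 peak lists of the series over chromosomes 1 to 22. 786-O is an established human clear cell renal carcinoma line, and ATAC-seq marks open DNA by where a transposase can insert sequencing adapters. The 2 WT control libraries came from negative control cells with a wild-type DEK genotype, and the 2 DEK KO libraries from cells in which DEK was knocked out with guide RNAs. Per the labels, Cas9 was brought in with a lentivirus and a Cas9-expressing clone was the parent of the knockout cells. Guide virus and sorting of single cells are stated for the knockout cells only. Whether a genotype's 2 libraries are separate clones or cultures is not stated, so p-values measure only the spread between these libraries, which may be technical. Peak names carry a different tag in each list, and the labels do not say whether a tag names a clone. In bulk ATAC-seq, fewer cells with an open site and a weaker opening in each cell cannot be told apart. A region at an end of the DEK gene itself was called in all 4 lists, which does not check the knockout.

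The 826 regions were selected on measured values. Each had a peak in the list of each DEK KO library and none in the control lists, lay more than 1 kb from either end of every protein-coding gene, and stood above the 50th percentile of −log10 p in both DEK KO lists. A percentile here ranks a peak among the peaks of its own list on chromosomes 1 to 22, and counting other chromosomes could move regions beside the limit across it. Presence, −log10 p, fold enrichment and percentile are therefore given as descriptions and were not tested. Of the 119879 distal merged regions, 6.75% had peaks in the 2 DEK KO lists alone, and 2.71% in the 2 control lists alone. The rule itself fixes these contrasts, so nothing is read from the number of members beside them.

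DEK is an abundant nuclear protein that binds DNA by its structure, bends and supercoils it, and acts as a histone chaperone that helps keep compacted chromatin in place. Open sites far from gene ends are often enhancers, insulators or unannotated start sites, and they differ between cell types more than promoters do. The gene nearest to such a site need not be the gene it acts on. Gene names below therefore give positions only.

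At 6 of the 826 regions a start window of a RefSeq gene was reached, that is, the stretch from 250 bases before to 50 bases after an annotated start site. These 6 were singled out after their values were seen, because they are the members for which sequence was at hand. At 3 the start belonged to a protein-coding gene but lay inside the gene's full span, and at 3 it belonged to a long noncoding RNA (lncRNA) gene. The highest-ranked was at DHRS9, a retinol dehydrogenase (region chr2:169069422-169069803), which stood at percentiles 77.6 (DEK KO replicate 1) and 89.4 (replicate 2). The summits lay 27 and 19 bases before the start site at position 169069563. The next was at ARHGEF2-AS1, an antisense lncRNA of ARHGEF2 (chr1:155990956-155991759), with percentiles of 72.4 and 71.2 and summits 225 and 173 bases before the start site. The region at TPM4, a tropomyosin of the actin cytoskeleton (chr19:16075913-16076488), had percentiles of 54.7 and 70.9 and summits 173 and 208 bases before the start. LOC105374641, an lncRNA gene on chromosome 5 (chr5:6829344-6829931), had percentiles of 60.3 and 50.4 and summits 198 and 168 bases before its start. In these regions both DEK KO libraries placed the summit upstream of the start. The window holds 250 bases before the start and only 50 after it, and the mean summit of all 6 members fell inside it. Nothing is therefore read from this direction.

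Sequence was at hand for all 6 members at annotated starts, and 4 are printed. The pick of 4 did not follow rank: LOC105374641 ranked 807 among the members, below the unprinted LOC105371995 (685) and DST (708). The stretches of these 4 start windows that lie inside the open regions are shown. That of TPM4 ends just before its start site. They come from RefSeq (GRCh38.p14), run 5′ to 3′ on the plus strand, and hold in capitals each match to a set of 24 short transcription factor motifs searched on both strands.
DHRS9 (chr2:169069422-169069612): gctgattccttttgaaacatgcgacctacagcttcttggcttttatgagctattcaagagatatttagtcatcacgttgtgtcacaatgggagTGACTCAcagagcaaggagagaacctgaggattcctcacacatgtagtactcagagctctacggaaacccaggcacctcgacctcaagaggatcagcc
ARHGEF2-AS1 (chr1:155991124-155991423): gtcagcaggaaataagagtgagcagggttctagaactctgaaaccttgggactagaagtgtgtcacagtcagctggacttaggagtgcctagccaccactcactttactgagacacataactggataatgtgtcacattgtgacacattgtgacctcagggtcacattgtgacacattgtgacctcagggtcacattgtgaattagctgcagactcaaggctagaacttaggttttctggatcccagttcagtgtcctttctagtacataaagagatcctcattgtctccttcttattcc
TPM4 (chr19:16076245-16076488): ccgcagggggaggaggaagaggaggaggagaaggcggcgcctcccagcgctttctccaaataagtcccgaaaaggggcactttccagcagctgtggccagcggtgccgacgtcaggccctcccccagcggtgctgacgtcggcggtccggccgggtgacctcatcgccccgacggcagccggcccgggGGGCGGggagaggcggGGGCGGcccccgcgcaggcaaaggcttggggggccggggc
LOC105374641 (chr5:6829513-6829812): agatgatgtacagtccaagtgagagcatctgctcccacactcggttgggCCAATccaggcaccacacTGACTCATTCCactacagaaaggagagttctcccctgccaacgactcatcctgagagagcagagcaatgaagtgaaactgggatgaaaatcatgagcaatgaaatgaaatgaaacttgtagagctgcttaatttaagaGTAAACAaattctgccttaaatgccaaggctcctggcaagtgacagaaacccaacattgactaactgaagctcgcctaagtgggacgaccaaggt

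The 4 stretches differed in base composition. That of TPM4 had a GC content of 74.2% and 25 CpG dinucleotides, whereas those of DHRS9, ARHGEF2-AS1 and LOC105374641 had 47.1%, 45.0% and 46.3% GC and 4, 0 and 4 CpG. The median over all 33725 start windows on these chromosomes was 58.7% GC and 14 CpG, and 3 of the 4 were below both medians. The other 2 windows were also below both, with 39.3% GC and 3 CpG at DST, which encodes the linker protein dystonin (chr6:56642838-56643692), and 41.0% GC and 5 CpG at the lncRNA gene LOC105371995 (chr18:11391582-11392143). The 33725 windows include starts at protein-coding gene ends, which the rule bars, so they are no matched background. CpG counts were not scaled for length, and the DHRS9 and TPM4 stretches had only 191 and 244 bases.

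The AP-1 motif TGANTCA, bound by FOS and JUN dimers, occurred in 2 of the 6 stretches, those of DHRS9 and LOC105374641. It was present in 7.67% of all start windows. In LOC105374641 it overlapped a match to the TEAD motif GGAATG, which was present in 14.0% of all windows. That stretch also held the forkhead motif TGTTTAC (3.45% of all windows) and the NFY motif CCAAT (34.4%). TPM4 held 2 matches to GGGCGG, the GC box of SP and KLF factors (45.0%), and the DST stretch held 2 matches to CCAAT. ARHGEF2-AS1 and LOC105371995 held no match. A match describes letters, not a bound site, and the printed stretch can be shorter than the windows behind these shares.

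Start windows were also counted in the sets compared below. One was reached by 6 of 826 members (0.726%, 95% exact binomial interval 0.267 to 1.57), by 94 of 7265 weaker distal regions called only in DEK KO (1.29%, 1.05 to 1.58), and by 2 of 126 control-only regions chosen by the mirrored rule (1.59%, 0.193 to 5.62). Strong distal regions called in all 4 lists reached one in 1659 of 30924 cases (5.36%, 5.12 to 5.62). Those shared regions were wider, with a median of 983 bp against 614 bp. With the mean of the 2 DEK KO summits in place of the whole region, the shares were 0.726% in members and 2.9% (2.71 to 3.09) in shared regions. Among regions with a lower percentile of 50 to 60 they were 0.806% (0.220 to 2.05) and 1.63% (1.34 to 1.98), whose intervals overlap. At 60 to 70 they were 0% (0 to 1.65) and 2.10% (1.77 to 2.47), which do not, and at 70 to 80 they were 2.11% (0.256 to 7.40) and 2.72% (2.35 to 3.14), which do. Above 80 they were 0 of 13 (0 to 24.7) and 4.21% (3.85 to 4.6). Intervals cover counting error only, regions are not replicates, and the difference was not tested. No member overlapped a miRNA hairpin, and 0 of 826 allows a share of up to 0.363%.

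In DEK KO replicate 1 the members had folds, that is, ratios of pileup to background at the summit, of 2.74 to 13.5 with a median of 7.75. In replicate 2 they had folds of 2.97 to 16.5 with a median of 9.20. Both folds exceeded 10 at 62 members and both were under 5 at 23. The −log10 p ran from 14.2 to 43.2 in replicate 1 and from 16.8 to 80.4 in replicate 2. The rule sets the lower ends of these ranges, which are the list medians of 14.2 and 16.8. The lowest −log10 p called in the control lists was 3.01 in replicate 1 and 2.99 in replicate 2. What signal the controls had below their limit was not measured in these lists.

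**Figure D1:**
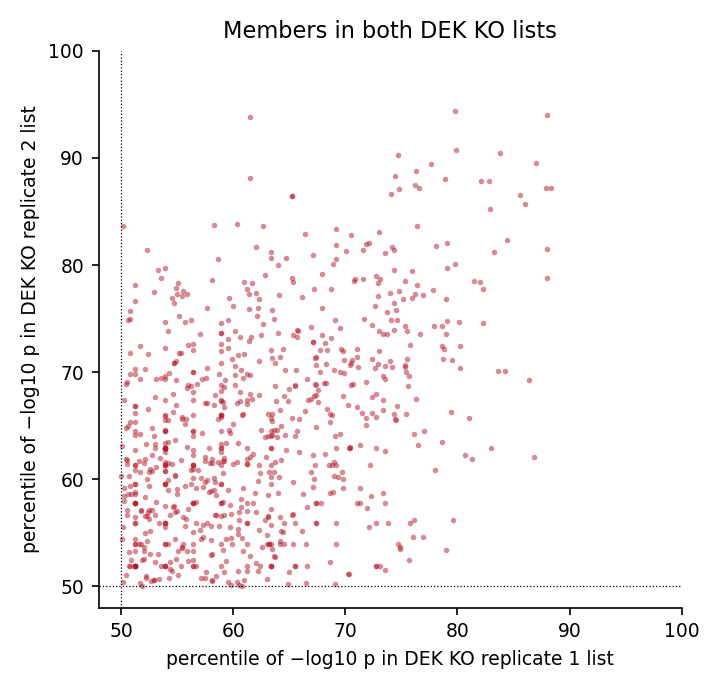
Percentile of −log10 p of each of the 826 members in the DEK KO replicate 1 list (x axis) and the replicate 2 list (y axis), with dotted lines at the limit of 50. Points crowd toward the limit, and 496 members had a lower percentile between 50 and 60.

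Most members were near the limit of the rule. The lower of the 2 percentiles was between 50 and 60 at 496 members, between 60 and 70 at 222, between 70 and 80 at 95, and above 80 at 13. Just inside the limit were a region in the span of PRRX1 (lower percentile 50.0279), one in the span of FBXL7 (50.0130) and one 11.7 kb from ZNF107 (50.0052). Just outside were regions near HNMT (49.9955), in GTF2IRD1 (49.9510) and near SLCO3A1 (49.9370). Their folds, 5.30 to 6.09 inside and 6.08 to 6.50 outside in DEK KO replicate 1, overlapped.

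The position of the summit within a peak played no part in the rule, but peaks had to overlap to be joined, which limits the distance. The DEK KO libraries placed the summits close together. The 2 summits were a median of 26.0 bp apart over the members (quartiles 11 and 48), within 50 bp at 640 of 826 and more than 200 bp apart at 12. Weaker DEK KO-only regions had a median of 47.0 bp and shared strong distal regions of 33.0 bp. In control-only strong distal regions the control summits were a median of 21 bp apart. At 825 members each DEK KO list held a single peak, and their peaks had median widths of 516 and 511 bp in replicates 1 and 2. Peaks of shared regions were wider (814 and 762 bp) and those of weaker DEK KO-only regions narrower (409 and 378 bp). Summit distances were not scaled for width.

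The 25 highest-ranked members lay on 14 chromosomes, 10 inside a protein-coding gene span and 15 outside. Their lower percentiles ran from 77.7 to 88.0, and their summits in the DEK KO libraries were at most 84 bp apart with a median of 22 bp. At the region nearest KCTD16, whose product binds GABA-B receptors (chr5:144697873-144698811), replicate 1 had a fold of 11.1 and replicate 2 of 13.2, with summits 5 bp apart. It was isolated, with the nearest peak 130 kb away in WT control replicate 1 and 111 kb away in replicate 2. The region near RTTN, a centriole protein (chr18:69992707-69993282), had folds of 13.2 and 15.1 and was 16.9 and 17.0 kb from control peaks. The one inside ADD2, a subunit of the membrane skeleton protein adducin (chr2:70726883-70727773), had folds of 11.1 and 11.3 and its nearest control peak 39.6 kb away. None of these 3 had a control peak within 10 kb.

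For others of the 25 the nearest protein-coding gene is given with its distance. A region 112 kb from MACROH2A1, which encodes a histone H2A variant linked to silent chromatin (chr5:135222008-135222717), had folds of 9.36 and 12.8. The region 151 kb from HEY2, a repressor downstream of Notch (chr6:125598309-125598826), had folds of 11.4 and 15.1. One lay 5.47 kb from CUX1, a homeodomain factor (chr7:101809945-101810539), with folds of 8.51 and 8.16. Another was 64.5 kb from BHLHE23, a basic helix-loop-helix factor. Inside the span of NR3C1, the glucocorticoid receptor gene, lay the region chr5:143311422-143311936 with folds of 7.45 and 8.58. Another member (chr5:143436858-143437362) was found 1.35 kb outside NR3C1, at folds of 7.79 and 10.9, and one more (chr5:143606248-143606772) 171 kb outside it, at 8.24 and 13.5. The genes nearest to others of the 25 included MAP3K9, a kinase of the JNK pathway, PLCG1, a phospholipase activated by receptor kinases, NTF3, a neurotrophin, and NRP1, a co-receptor of VEGF and semaphorins. The NTF3 region (chr12:5318791-5319441) was 111 kb away and had folds of 11.1 and 16.3, and the NRP1 region (chr10:33542555-33543425) 208 kb away with folds of 11.4 and 12.4.

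The region in PCYT1A, an enzyme of phosphatidylcholine synthesis (chr3:196246731-196247510), had folds of 10.7 and 14.8. The region 71.2 kb from ADGRA3, an adhesion receptor (chr4:22315513-22316186), had the highest replicate 2 percentile of all members, 94.4, beside 79.8 in replicate 1. Regions in LPP, a focal adhesion protein, in TRPM3, a cation channel, and near SLC37A1, a sugar phosphate transporter, had lower percentiles of 79.8, 78.4 and 81.2. The SLC37A1 region (chr21:42609396-42610138) was the closest of the 25 to a control peak, at 1.33 and 1.16 kb, and its summits fell on the same base. Near SI, sucrase-isomaltase of the intestine, lay a region 1662 kb from any protein-coding gene end (chr3:163315405-163316594), with folds of 9.59 and 12.6. The remaining members of the 25 were nearest to RND3, METTL14, DSE, TSPAN19, EFCAB5, NUDT4 and SMIM20, with lower percentiles of 87.0, 85.7, 85.6, 82.8, 82.1, 79.1 and 78.5.

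The share of members inside protein-coding genes was below that of shared regions. They lay inside a protein-coding span in 348 of 826 cases (42.1%, 95% exact interval 38.7 to 45.6), weaker DEK KO-only regions in 46.8% (45.7 to 48), control-only strong distal regions in 54.0% (44.9 to 62.9) and shared strong distal regions in 52.0% (51.5 to 52.6). By lower percentile, the share among members was 41.5% at 50 to 60, 43.2% at 60 to 70, 44.2% at 70 to 80 and 30.8% above 80, the last from 4 of 13 members (9.09 to 61.4). Shared regions in the same 4 ranges had 52.3%, 51.6%, 53.3% and 51.4%. More than 100 kb from any protein-coding gene end lay 31.0% of members (27.9 to 34.3), 28.6% of weaker DEK KO-only regions, 30.2% of control-only regions (22.3 to 39.0) and 22.9% of shared regions. Over 500 kb away were 47 members (5.69%, 4.21 to 7.5) and 3.0% of shared regions. The median distance was 44.1 kb for members, 47.2 kb for control-only and 33.3 kb for shared regions. Regions are not replicates, and these differences were not tested.

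**Figure D2:**
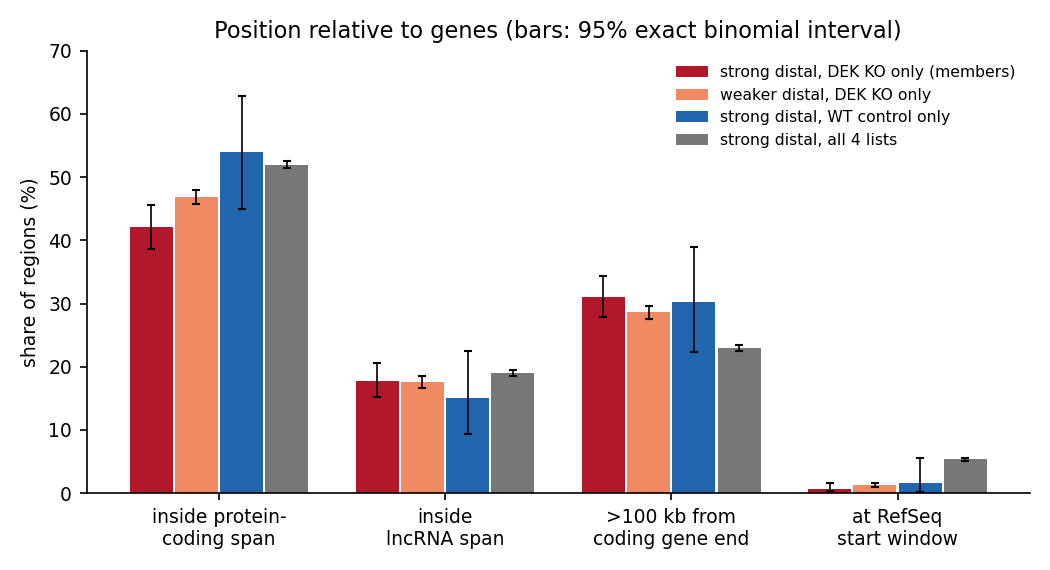
Share of regions (y axis, %) inside a protein-coding span, inside an lncRNA span, more than 100 kb from a protein-coding gene end, or at a RefSeq start window, for members, weaker DEK KO-only, control-only and shared distal regions, with 95% exact binomial intervals. Members had 42.1% inside protein-coding spans against 52.0% of shared regions.

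**Figure D3:**
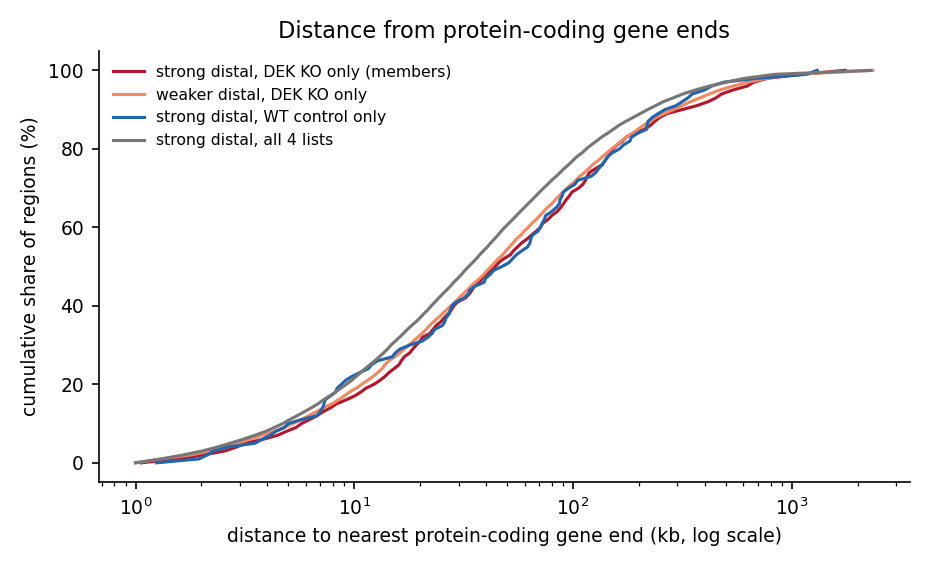
Cumulative share of regions (y axis, %) by distance to the nearest protein-coding gene end (x axis, kb, log scale) in the same 4 sets. The curve of members lies to the right of that of shared regions, with medians of 44.1 and 33.3 kb.

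Inside lncRNA spans lay 147 members (17.8%, 15.2 to 20.6) against 19% of shared regions, and 15 members (1.82%) overlapped a pseudogene against 1.82% of shared regions. Neither a protein-coding nor an lncRNA span held 356 members (43.1%, 39.7 to 46.6), compared with 33.9% of shared regions. Members inside protein-coding spans sat in long genes, with a median host length of 155 kb against 24.5 kb over all 19122 protein-coding genes. A longer gene holds more distal sequence, so the comparison with all genes carries no more than that.

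The same position measures over whole lists gave small differences between genotypes. Of the peaks above the 50th percentile of their list, 78.8% and 78.5% were distal in WT control replicates 1 and 2 and 80.9% and 79.8% in DEK KO replicates 1 and 2. The means were 78.6% ± 0.188 (SD, n = 2) and 80.3% ± 0.783 (n = 2), a difference of 1.73 percentage points (exact permutation test, two-sided, p = 0.333, the smallest that 2 against 2 allows). Of these distal peaks, 52.5% and 52.7% in the controls and 51.5% in each DEK KO library were inside protein-coding spans (difference -1.06 points, exact permutation p = 0.333). In these 2 measures the groups did not overlap, and the design cannot reach a p under 0.05. More than 100 kb from a protein-coding gene end lay 23.5% and 23.3% of the distal peaks in the controls and 24.0% and 23.4% in DEK KO, where the groups overlapped (difference 0.275 points, exact permutation p = 0.667).

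Of the 33061 distal regions above the limit in both DEK KO lists, 2.50% had no peak in either control list, and those are the members, as the rule fixes. A peak was missing only from WT control replicate 1 at 563 (1.7%), only from replicate 2 at 748 (2.3%), and from neither at 30924 (93.5%). Of the 30219 distal regions above the limit in both control lists, 0.417% (126) had no peak in either DEK KO list, 186 (0.616%) lacked one only in DEK KO replicate 1 and 597 (1.98%) only in replicate 2. The members made up 86.8% of the members and control-only strong regions together. The DEK KO lists held 100037 and 96862 peaks on these chromosomes against 87220 and 88059 in the controls, which moves with this share. With all lists shortened to the length of the shortest, 504 regions met the rule and 152 the mirrored rule, a share of 76.8%. Reads per library are not in the lists, so depth is unknown.

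Of the members, 438 lay within 10 kb of a control peak, 25 within 1 kb, and 23 more than 100 kb from every control peak. The median distance was 11 kb to the nearest peak of WT control replicate 1 and 10.8 kb to that of replicate 2. The rule itself bars overlap with a control peak. With no peak of the other genotype allowed within 1 kb, 801 of the 826 members and 112 of the 126 control-only strong regions remained. These distances were not tested.

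Members were found on every autosome. Their share of strong distal regions in both DEK KO lists was highest on chromosome 18 (31 of 792, 3.91%, exact interval 2.67 to 5.51) and chromosome 22 (21 of 561, 3.74%, 2.33 to 5.67). It was lowest on chromosomes 6 (35 of 1999, 1.75%, 1.22 to 2.43) and 2 (65 of 3438, 1.89%, 1.46 to 2.40), against 2.50% (2.33 to 2.67) over all. Only the intervals of chromosomes 18, 6 and 2, of these 4, left out the overall share, and no test was made. The mirrored share was highest on chromosome 14 (4 of 620, 0.645%, 0.176 to 1.64), and there were no control-only strong regions on chromosomes 21 and 22, where 0 of 349 and 0 of 408 allow shares of up to 0.860% and 0.735%.

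**Figure D4:**
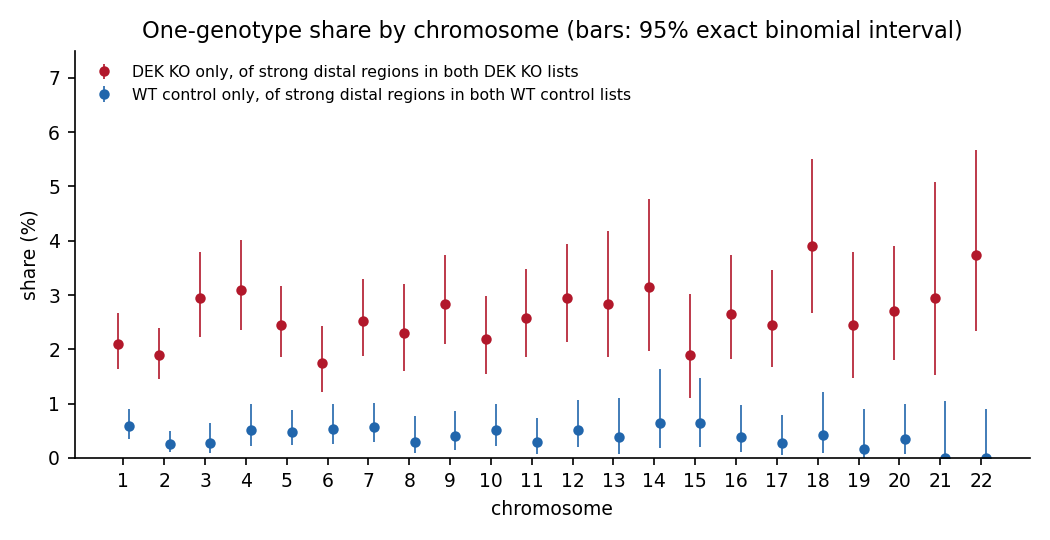
Share (y axis, %) of strong distal regions of both DEK KO lists with no control peak (red) and of strong distal regions of both control lists with no DEK KO peak (blue), by chromosome (x axis), with 95% exact binomial intervals. The red shares run from 1.75% on chromosome 6 to 3.91% on chromosome 18.

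Spacing among members depends on how many there are, and it was not compared with that of another set. The median distance to the nearest other member was 0.973 Mb, 72 members had another within 100 kb and 6 within 10 kb. Of the 826, 640 lay in or within 100 kb of a protein-coding gene, spread over 601 genes, of which 568 had 1 member, 29 had 2, 2 had 3 and 2 had 4. C8orf34 and RBFOX1 had 4 each, and TOX2 and ASTN2 had 3 each.

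Intervals of at most 200 kb with 3 members are named here, and the shortest was in RBFOX1, an RNA splicing factor of neurons and muscle, with a gene length of 2474 kb. Its 3 members lay within 38.8 kb (chr16:5865149-5903948) and had folds of 7.91, 7.93 and 3.84 in DEK KO replicate 1 and of 6.75, 10.8 and 4.48 in replicate 2. Of the 8 regions in that interval 1 was called in all 4 lists, beside 61035 of all 134897 merged regions. Each interval was chosen for its 3 members and ends at members, which lowers such counts. Nothing is therefore read from them. The other member in RBFOX1 (chr16:7137830-7138352) lay more than 1 Mb further along the gene. Between GNAI1 and GNAT3, both G protein alpha subunits, 3 members lay within 78.4 kb (chr7:80323739-80402125), an interval with 0 regions called in all 4 lists and 1 control-only region. Near SLC6A15, an amino acid transporter, and TSPAN19 the interval chr12:84919301-85017031 (97.7 kb) also held no region called in all 4 lists. Next to SLC6A15 were members at chr12:84919301-84919603 and chr12:84920065-84920804. The interval near TOX2, a high mobility group box factor (chr20:43743787-43911550, 168 kb), held 5 regions called in all 4 lists, 4 weaker DEK KO-only regions and no control-only region. The interval at C8orf34 spanned 114 kb.

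Regions called in all 4 lists near the members were ranked too. Each such region was ranked among the 61035 such regions of a list, which removes list length, and the median rank near members was set against the median elsewhere. Within 50 kb of a member were 2247 shared regions. Their median rank was 50.1 and 50.1 in WT control replicates 1 and 2 and 52.3 and 53 in DEK KO replicates 1 and 2, while elsewhere it was 49.9 to 50. The excess over elsewhere was thus 2.65 percentile points larger in DEK KO than in the controls. It was 2.33 within 200 kb but -0.162 within 10 kb (388 regions). Near the 126 control-only strong regions, the difference within 50 kb was -4.02 points (438 regions), with median ranks of 52.6 and 53.5 in the controls and 50.2 and 47.9 in DEK KO. It was -2.83 within 200 kb (1489 regions) and 1.13 within 10 kb (112 regions), so the sign changed at 10 kb there too. The same libraries chose the members, so these values are a description with no test.

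**Figure D5:**
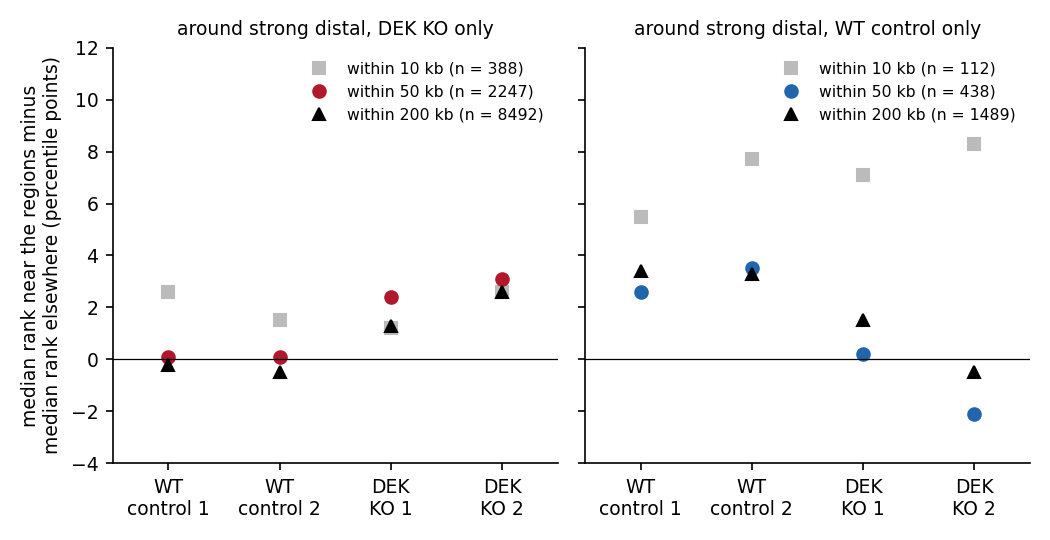
Median rank of regions called in all 4 lists near members (left) and near control-only strong distal regions (right), minus the median rank elsewhere (y axis, percentile points), per library (x axis) and for 3 distances. Within 50 kb of members both DEK KO libraries sit above both controls, and within 50 kb of control-only regions both sit below. Within 10 kb the difference of DEK KO from control had the other sign in both panels (-0.162 and 1.13 points).

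Weaker one-genotype regions around the members were divided as follows. Within 50 kb of members were 298 weaker distal DEK KO-only and 99 control-only regions, a DEK KO share of 75.1% (exact interval 70.5 to 79.2), beside 69.9% (69.1 to 70.8) for all such regions (7265 and 3122). Within 10 kb they were 46 and 21 (68.7%, 56.2 to 79.4). Near control-only strong regions, 37 and 39 lay within 50 kb (48.7%, 37.0 to 60.4). Within 200 kb the DEK KO share was 74.9% near members (1021 and 342, 72.5 to 77.2) and 61.4% near control-only strong regions (145 and 91, 54.9 to 67.7). The same lists chose the members and class these neighbours, so the shares are a description. Intervals cover counting error only, neighbouring regions are not replicates, and no test was made.

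Few members lay at genes of the 22 lists of pathways and cell types. Of 605 listed genes 599 matched the gene table, and 28 of them had 32 members in or within 100 kb of their span. That was 3.87% of members, beside 5.28% of shared strong distal regions (1634) and 8.73% of control-only ones (11). Hippo and TEAD targets, TGF-beta and BMP genes, renal lineage transcription factors, distal nephron genes, cell cycle genes and p53 targets had 0 members. Of shared regions they held 0.475%, 0.352%, 0.220%, 0.103%, 0.113% and 0.0841%, and a count of 0 of 826 allows a share of up to 0.363%, so only the Hippo list's share lies above that limit. These counts describe the lists and were not tested.

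Of the listed genes tied to this tumour, BNIP3, a hypoxia-induced mitophagy receptor, had the single member among HIF targets, 1.94 kb from the gene (chr10:131983862-131984148), with folds of 4.65 and 6.72. CUBN, the endocytic receptor cubilin, had the single proximal tubule member, inside its span (chr10:17088131-17088874), with folds of 8.50 and 11. Growth factor genes had 3 members: in HGF, the ligand of MET (folds 8.92 and 10.0), in PDGFD, a platelet-derived growth factor (8.57 and 10.4), and in ERBB4, a receptor of neuregulins (8.91 and 8.63). Extracellular matrix and integrin genes had 4: in DSE, in FBN1, the fibrillin gene (7.54 and 8.98), in ITGA2, a collagen receptor subunit (6.34 and 5.65), and 3.96 kb from ITGA5, a fibronectin receptor subunit (5.23 and 6.59). Mesenchymal genes had members in CDH2, N-cadherin (6.52 and 7.89), and PRRX1, a homeobox factor (5.30 and 5.27). JUP, plakoglobin, had the single member of the junction and keratin list (5.06 and 5.74). Beside the same lists in shared regions, growth factor genes held 0.363% of members and 0.459% of shared regions, matrix and integrin genes 0.484% and 0.653%, and mesenchymal genes 0.242% and 0.291%. HIF targets held 0.121% and 0.268%, proximal tubule genes 0.121% and 0.207%, and junction and keratin genes 0.121% and 0.175%.

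Developmental transcription factors had 5 members, of which 2 lay in ERG, an ETS factor of endothelium, and the others near FOXA2, MSX1 and ELF3. The list held 0.605% of members and 0.582% of shared regions. The first in ERG (chr21:38486302-38486916) had percentiles of 51.7 and 72.4 and the other (chr21:38544641-38545043) of 51.2 and 51.9. NKD2, a WNT inhibitor, was the one gene of the WNT list with a member, at 1.92 kb. Interferon response genes had members at GBP1 (3.0 kb away) and in OAS2, and the inflammatory list had one near CCL20, a chemokine. The WNT list held 0.121% of members and 0.246% of shared regions, the interferon list 0.242% and 0.0744%, and the inflammatory list 0.121% and 0.220%. Among DEK partners and histone chaperones only ANP32B, an acidic nuclear chaperone, had a member, 5.84 kb away (chr9:98021783-98022975, folds 7.1 and 6.4). That list held 0.121% of members and 0.146% of shared regions. Within 1 Mb of DEK itself there were 0.

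Neuronal genes had 7 members, or 0.847% of members beside 0.440% of shared regions, and 4 of them lay in RBFOX1. One was in CACNA1A, a calcium channel subunit (folds 9.20 and 8.59), and one 25.8 kb from CNTNAP2, an adhesion protein of axons (6.53 and 7.56). RBFOX1 and CNTNAP2 span 2474 and 2304 kb. Blood, hepatocyte, and endothelial and fibroblast markers had 1 (CD34), 1 (SERPINA1) and 2 (ERG) members. These were 0.121%, 0.121% and 0.242% of members, beside 0.0550%, 0.0420% and 0.136% of shared regions. Gene ends of cell type markers were also looked at. Of 10 renal and carcinoma markers, 7 (PAX8, VIM, CDH2, KRT8, KRT18, MET and VEGFA) had an open gene end in all 4 lists. PAX2, CA9 and NNMT had none in any. Of 11 markers of other cell types, APOA1 and SYT1 had one. The share over all protein-coding genes was not computed, so these counts cannot settle the labelled cell type.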

How the data were processed

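Open chromatin was profiled by ATAC-seq in 4 libraries of 786-O cells, 2 of WT control and 2 of DEK KO, each with 1 deposited narrowPeak list. The submitters' processing notes list a peak caller (MACS2 2.2.7.1), an aligner (Bowtie2 2.2.5), an adapter trimmer (cutadapt 1.18), tools for alignments (Picard 2.26.9, with SAMtools 1.7) and for signal (deepTools 3.5.1), and the packages ChIPseeker 1.32.1 and DiffBind 3.6.5, with the build GRCh38 (hg38). Their settings, and any transposase shift, are not given in the sources used here. Extraction text in the labels describes RNA, so no ATAC library method can be stated. The deposited summit offsets gave the summits. The deposited fold column is the ratio of pileup to background at the summit. The −log10 p and −log10 q columns were written by the authors' peak caller, as was the deposited score column, which was not used. The lowest deposited −log10 q was 1.30 to 1.32, near a q-value limit of 0.05. Regions were ranked by percentiles within a list on chromosomes 1 to 22. Fold and −log10 p are printed as each list gives them and depend on its depth, which is unknown.

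Peaks on chromosomes 1 to 22 were merged across lists at an overlap of 1 bp or more, and each region took its highest-ranked peak per list. Distances used the 19122 protein-coding genes of a RefSeq table (GRCh38.p14), which has no strand. Exons are not in it, so a position inside a gene span is not called intronic or exonic. Members were assigned to the nearest gene span within 100 kb. The members, gene lists, motifs and tests were chosen with earlier results of these data known. The rule for named genes took the 25 members with the highest lower percentile, up to 4 genes per list, groups of 3 members within 200 kb, and regions beside the limit. Some listed genes are not reported here. Library values were compared with exact permutation tests over 6 assignments. Merging and distances were tested on simulated data. Python 3.11.15, numpy 2.4.6, pandas 2.3.3, scipy 1.17.1, matplotlib 3.10.9 and bedtools 2.31.1 were used.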

Additional observations from a re-analysis of the deposited data

Results flagged for a closer look

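Chromosome X was outside the rule. On it, 25 regions met the same criteria in the DEK KO lists, of 813 strong distal regions in both, and 2 met the mirrored criteria in the controls. These counts are listed because they lie in data not used above. The rule itself shapes the contrast between the genotypes, so nothing is read from it. The number of strong distal regions in both control lists on chromosome X is not given, so the mirrored count has no share. On the autosomes the rule took 826 of 33061 strong distal regions in both DEK KO lists (2.50%). The chromosome X counts were not tested.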

How the results depend on the processing

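The 25 highest-ranked members still met the rule when ranked by fold and with no control peak within 1 kb. TSPAN19, 2.06 kb from a gene end, left it at a distance of 5 kb. Percentile limits of 40 and 75, and leaving out a library, could not remove any of them. Nor could −log10 q of at least 5 or lists of equal length, as the 25 had lower percentiles of 77.7 or more. The number of regions meeting the rule was 1632 at a percentile limit of 40, 38 at 75, 399 with −log10 q of at least 5, 504 with lists of equal length and 1372 when ranked by fold. Of the 826 members, 298, 502 and 709 were kept in the last 3. The share of DEK KO-only regions among strong distal one-genotype regions was 83.2% at the limit of 40 and 76.8% with lists of equal length. Leaving out 1 library makes the rule easier to meet: omitting DEK KO replicate 1 gave 1963 regions, DEK KO replicate 2 gave 1538, WT control replicate 1 gave 1577 and WT control replicate 2 gave 1392, and the share ran from 73.1% to 84.1%. The share inside protein-coding spans ran from 41.8% to 44.9% over all alternatives. Members at a listed gene numbered 32, and 21 by the nearest gene end within 50 kb. The rank difference of shared regions near members, added after the data were seen, turned from 2.65 to -0.162 at 10 kb; the cause was not tested. Replicate numbers are not said to pair the libraries. Deviations from the group mean in WT control 1 and DEK KO 1 had a correlation of 0.013 over 61035 regions. With 2 libraries per group this cannot settle whether they were handled in pairs. With a replicate block the difference in distal share stayed at 1.73 points, with an exact p of 0.500, the smallest possible, and leaving out libraries gave 1.17 to 2.28. Motif and base composition at the summits was not run, since no genome was used here.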
